A study of Mus musculus with 4 samples.

Results

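Genes whose inherited or somatic changes lead to pituitary tumours were followed through the cell types of the ageing mouse pituitary: Men1, Cdkn1b, Gnas, Usp8, Hmga2, Pttg1 and Gpr101. They were picked by symbol, and all 7 of them were found among the 32285 genes counted. The data are single-nucleus RNA counts from 4 libraries of wild-type UM-HET3 mice, a genetically heterogeneous stock, labelled as males aged 5 months, females aged 5 months, males aged 22 months and females aged 22 months. Each library pooled the nuclei of 3 glands, and no group has a replicate library. Values are given in that order of libraries throughout, as CPM, the unique molecular identifiers (UMIs) of a gene per 1000000 UMIs summed over the nuclei of a class. Classes were named by markers and carry the ending "-like".

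Sex-linked transcripts went against the labels of 2 libraries. Y-linked genes summed to 650, 646, 0.474 and 0.614 CPM, and Xist stood at 0.298, 0.891, 2461 and 1741 CPM. The libraries labelled 5-month females and 22-month males therefore did not match their labelled sex. Libraries are named here by their labels. Labelled age coincides with Xist and Y-linked transcripts in these libraries, so labelled age and the sex these transcripts mark cannot be told apart. If these 2 libraries carry each other's labels, the contrast called labelled age would be one of sex and the contrast called labelled sex would be one of age.

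After filtering, 31343 nuclei remained (7156, 6597, 10355 and 7235), with median depths from 3460 to 4745 UMIs. Their 11 classes held at least 30 nuclei in every library, and 2454 nuclei stayed unnamed (26, 130, 859 and 1439). Unnamed clusters 4 and 11 scored highest for somatotrope markers and cluster 12 for thyrotrope markers. These clusters came mostly from the 22-month libraries, and comparisons within classes leave them out. Of 62 class and marker pairs checked, 54 had their highest level in the class they mark. Sox9 and S100b did not for stem-like nuclei, and S100b stood below 2 CPM there. Drd2 and Esr1 did not for lactotrope-like nuclei. The others were Pomc for corticotrope-like, Tbx19 for melanotrope-like, Pou1f1 for somatotrope-like and Cga for thyrotrope-like nuclei. Hormone transcripts appeared in all classes: Prl, the prolactin gene, stood at 14617, 7072, 71710 and 32097 CPM in endothelial-like nuclei. In lactotrope-like nuclei of both 5-month libraries Gh, the growth hormone gene, stood above Prl (40720.5 and 26368 against 38762 and 18413 CPM). Any 2 libraries shared 13 to 24 barcodes. Different clusters held the same class at the labelled ages. Lactotrope-like nuclei were cluster 10 in the 5-month libraries and clusters 21, 23, 24 and 25 in the 22-month libraries. Gonadotrope-like nuclei were clusters 6 and 22, and somatotrope-like nuclei were mostly clusters 0, 1 and 2 at 5 months and cluster 3 at 22 months. Comparisons within these classes are comparisons between those clusters.

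The products of these genes act at separate points of pituitary cell growth. Gnas encodes the alpha subunit of the stimulatory G protein, through which releasing hormone receptors raise cyclic AMP. Activating mutations in it occur in growth hormone-secreting tumours. Gpr101 encodes an orphan receptor that couples to the same G protein, and its duplication causes X-linked acrogigantism. Usp8 encodes a deubiquitinase that spares the EGF receptor from degradation and is mutated in corticotrope tumours. Men1 encodes menin, a chromatin-bound tumour suppressor that drives expression of Cdkn1b, and Cdkn1b encodes the cyclin-dependent kinase inhibitor p27. Hmga2 encodes an architectural chromatin protein of embryonic and progenitor cells. Pttg1 encodes securin, which holds back separase, the enzyme that cleaves the cohesin between sister chromatids, until anaphase.

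Promoter sequence is shown for Gnas, Hmga2 and Gpr101, the members with the clearest differences between libraries. Each line is the 250 bases before an annotated start in RefSeq on GRCm38.p6 and runs 5′ to 3′ on the gene's strand. The Gnas line precedes the most downstream of its annotated starts (chr2:174329756-174330005, plus strand). The Hmga2 line is chr10:120476470-120476719 and the Gpr101 line chrX:57503758-57504007, both on the minus strand. Capitals mark matches on either strand to the GC box GGGCGG, the cyclic AMP response element TGACGTCA, the box named CCAAT or the box named TATAAA. These motifs were chosen with the results known.
Gnas: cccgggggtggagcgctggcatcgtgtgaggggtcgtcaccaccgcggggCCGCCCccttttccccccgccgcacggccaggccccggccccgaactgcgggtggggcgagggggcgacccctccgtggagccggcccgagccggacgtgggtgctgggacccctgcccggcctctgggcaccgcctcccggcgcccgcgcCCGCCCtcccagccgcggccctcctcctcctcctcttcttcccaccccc
Hmga2: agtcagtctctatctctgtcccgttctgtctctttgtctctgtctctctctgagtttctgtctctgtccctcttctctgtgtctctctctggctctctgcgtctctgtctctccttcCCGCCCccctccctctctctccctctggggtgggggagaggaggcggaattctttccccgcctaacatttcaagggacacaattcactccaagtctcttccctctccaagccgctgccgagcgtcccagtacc
Gpr101: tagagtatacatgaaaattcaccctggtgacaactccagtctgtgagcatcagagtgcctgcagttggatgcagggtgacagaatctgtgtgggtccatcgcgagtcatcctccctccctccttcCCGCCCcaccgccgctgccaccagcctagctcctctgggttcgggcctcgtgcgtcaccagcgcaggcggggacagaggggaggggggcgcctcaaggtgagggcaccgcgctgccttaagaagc
GGGCGG matched 2 times in the Gnas line and 1 time in each of the others, and 32.7% of 32851 promoter windows of this length hold it. TGACGTCA is held by 1.55% of windows, CCAAT by 33.8% and TATAAA by 12.4%, and these letters were in none of the 3 windows. The Hmga2 window was 70.8% C and T, a share that 0.414% of windows reach. The Gnas window shown was 80% G and C, against a median of 52.4%. The windows before its other annotated starts, not shown, were 61.6% or 63.2% G and C. Each of those matched TATAAA, and some matched CCAAT.

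**Figure D1:**
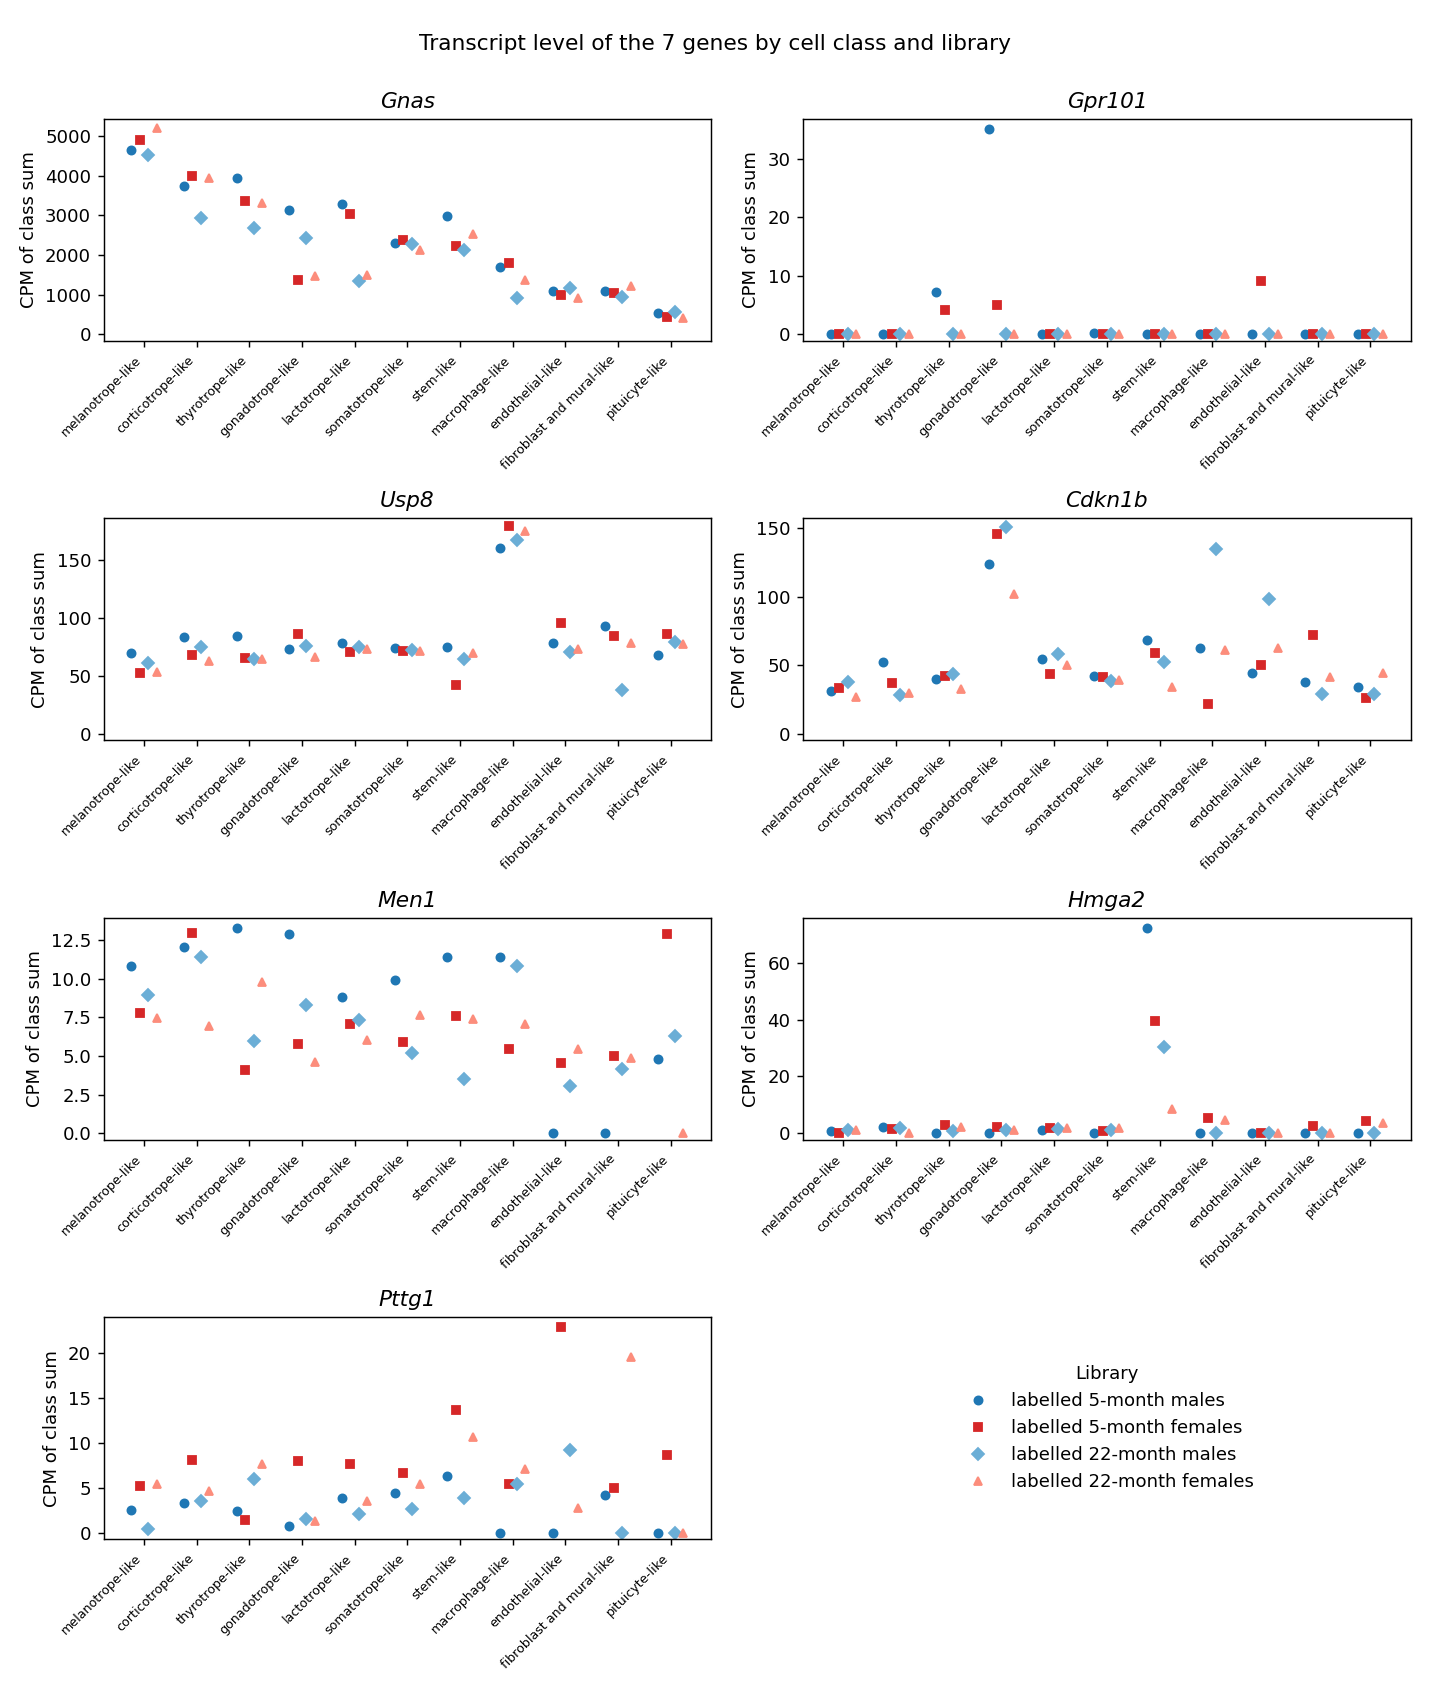
Level of each gene in CPM of the class sum (vertical axes, linear, one scale per gene) in 11 marker-named classes (horizontal axes), with 1 point per library. Gnas was highest in melanotrope-like nuclei, Usp8 in macrophage-like, Cdkn1b in gonadotrope-like and Hmga2 in stem-like nuclei in each of the 4 libraries.

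Gnas (chr2:174284320-174346744, plus strand, mm10) was counted in every class, with 297664 UMIs over the 11 classes. It was highest in melanotrope-like nuclei, the POMC-producing cells of the intermediate lobe, at 4649, 4915, 4532 and 5200 CPM (4824 ± 297, SD, n = 4 libraries). All 4 of these values were above the highest value of the next class, corticotrope-like nuclei, which stood at 3659 ± 498 CPM. Thyrotrope-like nuclei followed at 3323 ± 518 and stem-like nuclei at 2468 ± 383 CPM. Corticotrope-like and thyrotrope-like values overlapped. Lactotrope-like (2293 ± 1009 CPM), gonadotrope-like (2102 ± 836 CPM) and somatotrope-like nuclei (2282 ± 108 CPM) had like means and unlike spreads. Macrophage-like nuclei stood at 1444 ± 391, fibroblast-and-mural-like at 1075 ± 118, endothelial-like at 1041 ± 109 and pituicyte-like nuclei, the glia of the posterior lobe, at 493 ± 76.2 CPM. The endothelial-like values were all above the pituicyte-like ones. The class order is a description of 4 libraries and was not tested.

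In lactotrope-like nuclei, the prolactin-producing cells, Gnas stood at 3276, 3047, 1360 and 1490 CPM. The 5-month and 22-month libraries did not overlap. The level was 0.415 times as high in the 22-month as in the 5-month library among those labelled males (95% interval 0.408 to 0.422, counting error only) and 0.489 times among those labelled females (0.481 to 0.497). In edgeR's quasi-likelihood test of class sums, with labelled age and labelled sex as terms and Benjamini-Hochberg adjustment, the log2 difference by labelled age was -0.96 ± 0.16 (approximate SE, 2 libraries against 2, adjusted p = 0.00722). In this class and contrast 21.7% of 16463 genes passed, and the share of members tested there that did so has to be read against that. DESeq2 gave an adjusted p of 2.84e-06. Leaving out a library kept the sign but lost the call in all 4 cases, with log2 differences from -1.02 to -0.89. These fits also dropped labelled sex from the model. With all 4 libraries and labelled age alone, the log2 difference was -0.96 (edgeR adjusted p = 0.0367).

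The lower Gnas level appeared in each 22-month lactotrope-like cluster. Cluster 10, which held the 5-month nuclei, stood at 3278 CPM in 5-month males and 3047 in 5-month females. Clusters 21, 23, 24 and 25 ran from 1033 CPM (cluster 25, 22-month males) to 1867 CPM (cluster 23, 22-month females). Prl itself went the other way, at 38762, 18413, 90051 and 56340 CPM in lactotrope-like nuclei. With the 7 hormone genes left out of the totals, Gnas stood at 3579, 3205, 1533 and 1598 CPM. The ratios of 22-month to 5-month libraries were then 0.428 among labelled males and 0.499 among labelled females, against 0.415 and 0.489 before. With TMM scaling over all class sums Gnas stood at 3319, 3129, 1628 and 1779 CPM, and the difference was smaller (ratios 0.491 and 0.568). The summed markers of pituicytes in lactotrope-like nuclei moved with labelled age, at 7.75, 16.6, 142 and 263 CPM over 5 markers, and fibroblast markers stood at 88.3, 76.6, 217 and 290 CPM. Their part in the result was not tested.

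**Figure D2:**
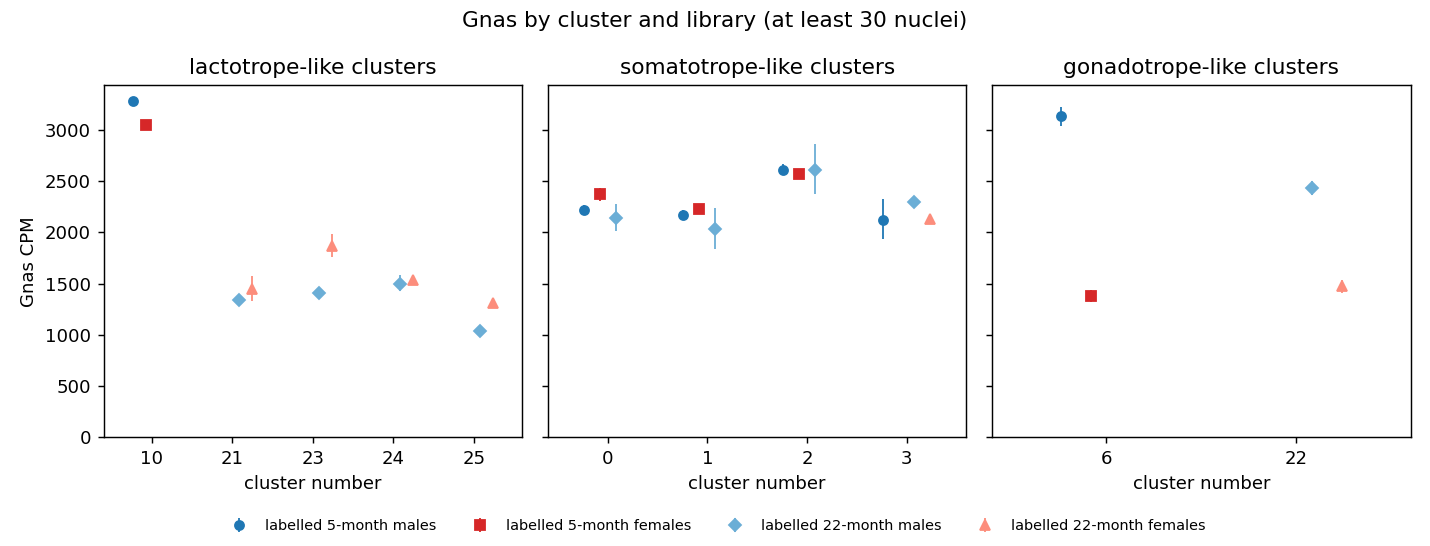
Gnas level in CPM (vertical axis, from 0) by cluster number (horizontal axis) for clusters of lactotropes, somatotropes and gonadotropes with at least 30 nuclei in a library. Points are libraries and bars 95% counting intervals; the 22-month lactotrope-like clusters lie between 1033 and 1867 CPM and cluster 10 above 3000.

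In the other hormone-producing classes Gnas did not pass by labelled age. Somatotrope-like nuclei, the growth hormone-producing cells, stood at 2318, 2389, 2288 and 2134 CPM, within 2033 to 2612 CPM over all their clusters with at least 30 nuclei. Melanotrope-like nuclei stood at the values above. In corticotrope-like nuclei Gnas stood at 3752, 3999, 2931 and 3956 CPM, and in thyrotrope-like nuclei at 3939, 3366, 2672 and 3317 CPM. In both of these classes the library labelled 22-month males was the lowest. Gnas was tested by labelled age in 11 classes and passed in 1 of them, and its log2 difference was above 0 in 2 of the 11. It was also called in thyrotrope-like nuclei in a finer clustering (Leiden resolution 2) and in macrophage-like nuclei without 22-month females. Besides 21.7% in lactotrope-like nuclei, the share of all genes that passed by labelled age was 1.33% in corticotrope-like, 2.78% in melanotrope-like, 5.44% in somatotrope-like, 6.87% in thyrotrope-like, 10.7% in gonadotrope-like and 5.92% in stem-like nuclei. It was 0.246% in endothelial-like, 2.32% in fibroblast-and-mural-like and 0.803% in pituicyte-like nuclei. In macrophage-like nuclei 0 of 4209 genes passed with edgeR (223 had an unadjusted p under 0.05) and 3 with DESeq2. Whether the lactotrope-like difference exceeds that of other classes was not tested.

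In gonadotrope-like nuclei, which make luteinising and follicle-stimulating hormone, Gnas stood at 3133, 1378, 2428 and 1470 CPM. Both libraries labelled males were above both labelled females. The female level was 0.440 times the male level at 5 months (95% counting interval 0.416 to 0.464) and 0.605 times at 22 months (0.575 to 0.636). The log2 difference by labelled sex was -0.91 ± 0.22 and missed the threshold (edgeR adjusted p = 0.0555), where 1.88% of 11931 genes passed. Immediate-early genes (8 genes summed, Fos among them) stood at 2725 CPM in 5-month males against 57.8, 56.3 and 57.2 CPM. In the finer clustering Gnas stood at 3274 CPM in the 5-month male nuclei with many of these transcripts and at 2804 CPM in those with few. The difference by labelled sex passed when genes with low counts were kept in the fit (edgeR adjusted p = 5.1e-06). No Gnas difference by labelled sex passed in any of the 11 classes tested with edgeR, and 1 had an unadjusted p under 0.05. The shares of all genes that passed by labelled sex in the other classes were 0.427% in corticotrope-like, 0.364% in lactotrope-like, 2.05% in melanotrope-like, 0.55% in somatotrope-like, 1.59% in thyrotrope-like and 1.22% in stem-like nuclei. They were 0.227% in endothelial-like, 1.06% in fibroblast-and-mural-like and 0.588% in pituicyte-like nuclei. In macrophage-like nuclei 0 passed with edgeR (200 had an unadjusted p under 0.05) and 0 with DESeq2.

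The Gnas locus also makes transcripts from the opposite strand. The sources used here do not say whether counting used strand, so reads of overlapping genes could be split differently. Gnasas1, the antisense transcript named Nespas in GENCODE, stood at 10.9, 4.40, 3.63 and 1.16 CPM in lactotrope-like nuclei (log2 difference by labelled age -1.53 ± 0.32, edgeR adjusted p = 0.0158). It was also lower in somatotrope-like nuclei (log2 difference -0.92, edgeR adjusted p = 0.0405), where Gnas itself did not pass. Over 44 class sums, centred within each library, the gene with the level most like that of Gnas was Gm20721 (Pearson r = 0.94 of log2(CPM + 1)), which lies within Gnas on the opposite strand. Rgs7, a regulator of G protein signalling, followed at r = 0.91 and Rit2, a small GTPase of neurons, at r = 0.90. These sums share libraries and depth.

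Gpr101 (chrX:57496668-57503757, minus strand) was counted in few nuclei, with 70 UMIs in all, of which 56 were in gonadotrope-like nuclei. There it gave 49, 7, 0 and 0 UMIs, or 35.1, 5.06, 0 and 0 CPM. The UMIs were found in 26 of 314 nuclei in 5-month males, in 5 of 264 in 5-month females, in 0 of 297 in 22-month males and in 0 of 169 in 22-month females. These shares were 8.28% (95% Clopper-Pearson interval 5.48 to 11.9), 1.89% (0.618 to 4.36), and 0% with upper bounds of 1.23% and 2.16%. The gonadotrope-like nuclei of the 22-month libraries were the deeper ones (median 6282 and 8066 UMIs against 4154 and 4897). Thinned to 1500 UMIs per nucleus, the shares were 2.26%, 0%, 0% and 0%.

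With a floor of 3 counts put in place of 0, the 5-month level of Gpr101 was 23.9 times the 22-month floor among labelled males. Among labelled females it was 2.56 times the floor. These ratios leave out the counting error of the 5-month counts and are not lower bounds. The library labelled 5-month females had 0.144 times the level of 5-month males (95% counting interval 0.0551 to 0.320). No class had enough Gpr101 counts to be tested in the fit. The remaining UMIs were 6 and 3 in thyrotrope-like nuclei of the 5-month libraries, 3 in somatotrope-like nuclei of 5-month males and 2 in endothelial-like nuclei of 5-month females. Lactotrope-like nuclei, the largest class, had 0 in every library. Gpr101 is X-linked, and its UMIs came from the 2 libraries with Y-linked transcripts and no others.

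The 5-month male gonadotrope-like nuclei were the ones high in immediate-early genes. The finer clustering divided most of them into a cluster of 193 nuclei with 4268 CPM of these genes and a cluster of 108 nuclei with 138 CPM. Gpr101 stood at 25.1 CPM (15.8 to 38.1) in the first and at 47.2 CPM (29.9 to 70.9) in the second. The nuclei with few immediate-early transcripts had the higher value of these, with overlapping intervals.

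Usp8 (chr2:126707328-126759297, plus strand) had 9304 UMIs over the 11 classes and a nearly even level in 10 of them. It was highest in macrophage-like nuclei, at 160, 179, 168 and 175 CPM (170 ± 8.32, n = 4), from 28, 33, 31 and 74 UMIs. Every one of these was above the highest endothelial-like value, the class next in order at 79.6 ± 11.3 CPM. The other means ran from 59.3 ± 8.10 in melanotrope-like to 77.6 ± 7.52 CPM in pituicyte-like nuclei, and neighbours in that order overlapped. Corticotrope-like nuclei, the class of the tumours in which it is mutated, stood at 72.1 ± 8.92 CPM. The macrophage-like level depended on filtering: it was 116 CPM with predicted doublets kept and 133 CPM with at least 1000 genes per nucleus, still the highest of the classes. Usp8 passed in none of 11 classes by labelled age or labelled sex (edgeR, smallest adjusted p = 0.272 and 0.638, with 0 unadjusted p under 0.05 in either). The genes most like it over the 44 sums were Adgre1, Lilrb4a and Cyth4, at r = 0.86, 0.84 and 0.84. Adgre1 encodes the macrophage antigen F4/80. Usp50 overlaps Usp8 on the opposite strand.

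Cdkn1b (chr6:134920401-134925513, plus strand) had 6533 UMIs over the classes. It was highest in gonadotrope-like nuclei in all 4 libraries, at 124, 146, 151 and 102 CPM (131 ± 22.5, n = 4). Macrophage-like nuclei came next at 70.3 ± 47.2 CPM, with one value of 135 CPM in 22-month males inside the gonadotrope-like range. The lowest means were 33.3 ± 8.01 CPM in pituicyte-like and 32.4 ± 4.74 CPM in melanotrope-like nuclei. Somatotrope-like nuclei stood at 40.3 ± 1.70 and lactotrope-like nuclei at 51.8 ± 6.19 CPM. Thinned to 1500 UMIs, 18.4%, 17.6%, 23.0% and 13.6% of gonadotrope-like nuclei had a Cdkn1b UMI. Cdkn1b was tested in 10 classes and passed in none by labelled age (edgeR, smallest adjusted p = 0.0771) or labelled sex (smallest adjusted p = 0.498), with 3 and 1 unadjusted p under 0.05. By labelled age it was called in lactotrope-like nuclei with no filter on low counts and in macrophage-like nuclei without 22-month females. The genes most like it over the 44 sums were Fshb (r = 0.76), which encodes the beta subunit of follicle-stimulating hormone, Ostf1 (r = 0.71) and Tgfbr3l (r = 0.68).

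Men1 (chr19:6334979-6340891, plus strand) was low everywhere, with 944 UMIs over the classes. Its means ran from 3.27 ± 2.39 CPM in endothelial-like to 10.8 ± 2.67 CPM in corticotrope-like nuclei, and all neighbours in that order overlapped. In corticotrope-like nuclei it stood at 12.05, 12.9, 11.4 and 6.95 CPM, from 11, 8, 13 and 3 UMIs. In somatotrope-like nuclei it stood at 9.90, 5.91, 5.21 and 7.66 CPM. In 4 classes it had enough counts to be tested, and it passed in none (edgeR, smallest adjusted p = 0.636 by labelled age and 0.486 by labelled sex, with 0 unadjusted p under 0.05 in either). The order was not tested.

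Hmga2 (chr10:120361275-120476469, minus strand) was highest in stem-like nuclei, the marginal-zone progenitors marked here by Sox2, Aldh1a2 and Rbpms. It gave 57, 26, 78 and 8 UMIs there, or 72.4, 39.5, 30.5 and 8.48 CPM. Each was above the highest value of the next class, macrophage-like nuclei, whose mean was 2.54 ± 2.95 CPM from 3 UMIs. Stem-like nuclei were 5.40% of nuclei and held 169 of 354 Hmga2 UMIs (47.7%). The share held differed between libraries, at 79.2%, 40.6%, 54.5% and 10.7%. A UMI was found in 38 of 338, 20 of 225, 58 of 857 and 4 of 274 stem-like nuclei. A UMI of the 8 genes of dividing cells was found in 15 of 1694 stem-like nuclei and in 1 of these 120.

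Thinned to 1500 UMIs per nucleus, the shares of stem-like nuclei with an Hmga2 UMI were 8.74% (95% interval 5.74 to 12.6), 5.26% (2.66 to 9.22), 3.31% (2.19 to 4.78) and 0.383% (0.0097 to 2.12). In lactotrope-like nuclei they were 0.143%, 0.253%, 0.263% and 0.269%. The share in 22-month females rests on 1 nucleus with a UMI. Before thinning the shares were 11.2%, 8.89%, 6.77% and 1.46%, with median depths of 2147, 2755, 2696 and 2939 UMIs, and in lactotrope-like nuclei 0.371%, 0.726%, 0.669% and 1.04%, with median depths from 3187 to 5030 UMIs.

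The Hmga2 level in stem-like nuclei was lower in each 22-month library than in both 5-month libraries, and lower in each library labelled females than in its male counterpart. The 22-month level was 0.421 times the 5-month level among labelled males (95% counting interval 0.295 to 0.603) and 0.215 times among labelled females (0.0840 to 0.488). By labelled age the log2 difference was -1.54 ± 0.30 (edgeR adjusted p = 3.70e-05), where 5.92% of 10109 genes passed. By labelled sex it was -1.28 ± 0.32 (edgeR adjusted p = 0.0130), where 1.22% passed. DESeq2 called neither (adjusted p = 0.265 and 0.9999), and neither passed with the tested term alone (edgeR adjusted p = 0.168 and 0.999). Hmga2 was tested in 3 classes, and in 2 of them its difference was above 0 by both labels and did not pass. In somatotrope-like nuclei (32 UMIs) it was 1.55 by labelled age (edgeR adjusted p = 0.200, unadjusted 0.0434) and 1.01 by labelled sex. In lactotrope-like nuclei (95 UMIs) it was 0.25 and 0.49.

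Both Hmga2 calls held without 22-month males and were lost without any other library. The fits with a library left out held the tested term alone, so the other label was not balanced in them. By labelled age the log2 difference was -0.83 without 5-month males, -1.73 without 5-month females, -2.78 without 22-month males and -0.90 without 22-month females. By labelled sex it was -0.46 without 5-month males, -2.58 without 5-month females, -1.72 without 22-month males and -0.30 without 22-month females. With all 4 libraries and the tested term alone, the differences were -1.37 by labelled age and -1.15 by labelled sex. Immediate-early genes in stem-like nuclei moved along, at 698, 105, 66.0 and 59.4 CPM, with 5-month males highest. Stem markers summed to 6699, 7129, 5135 and 7243 CPM over 8 genes and did not follow the Hmga2 order. Lactotrope markers, Prl mainly, summed to 10770, 4882, 69078 and 24996 CPM in stem-like nuclei. Their part in the result was not tested. The antisense genes 1700006J14Rik and 9230105E05Rik overlap Hmga2, so their reads could also be split differently.

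**Figure D3:**
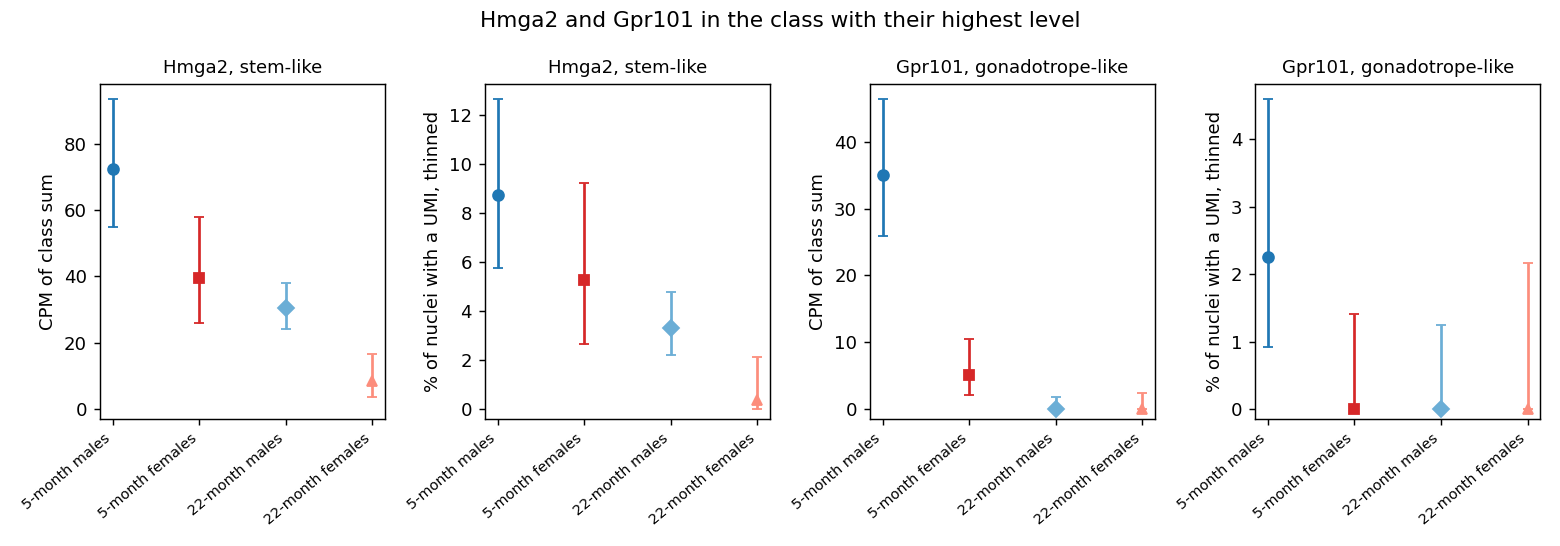
Hmga2 in stem-like and Gpr101 in gonadotrope-like nuclei by library: level in CPM of the class sum (the panels with CPM axes) and percent of nuclei with a UMI after thinning to 1500 UMIs (the panels with percent axes), with 95% counting intervals as bars. Hmga2 falls from 72.4 CPM in 5-month males to 8.48 in 22-month females, and Gpr101 is counted in the 5-month libraries alone.

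Pttg1 (chr11:43420250-43426251, minus strand) had 525 UMIs over the classes, with means from 2.15 ± 4.30 CPM in pituicyte-like to 8.71 ± 10.2 CPM in endothelial-like nuclei. Neighbours in that order overlapped, and the highest mean came from 9 UMIs. That mean was 3.99 CPM without 5-month females and 3.48 CPM with at least 1000 genes per nucleus. Stem-like nuclei had the highest mean with at least 1000 genes (8.11 CPM) and in the finer clustering (8.64 CPM). In lactotrope-like nuclei it stood at 3.81, 7.60, 2.08 and 3.48 CPM. In somatotrope-like nuclei it stood at 4.42, 6.67, 2.67 and 5.42 CPM. In both classes each library labelled females was above its male counterpart. It was tested in 3 classes and passed in none (edgeR, smallest adjusted p = 0.115 by labelled age and 0.0766 by labelled sex, with 1 and 2 unadjusted p under 0.05).

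Pttg1 was higher in dividing nuclei. A small cluster of 21 nuclei (5, 2, 13 and 1) led by Top2a and Kif23, genes of mitosis, held 10 Pttg1 UMIs in 7 nuclei. This was 64.4 CPM (95% counting interval 30.9 to 118) against 4.09 CPM in all other nuclei, a ratio of 15.7 (7.51 to 29.2). The cluster was formed without Pttg1, but its nuclei were defined by genes of the same programme, so the ratio is a description. Their median depth was 6124 UMIs. In the same nuclei Usp8 stood at 122 CPM against 72.6 in the rest (ratio 1.68, 1.01 to 2.63) and Gnas at 1647 against 2339 CPM (0.704, 0.621 to 0.796). Cdkn1b stood at 45.05 CPM against 50.7, and Hmga2, Men1 and Gpr101 had 0 UMIs, which allows up to 23.7 CPM each.

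Over all members, 42 member and class pairs had enough counts to be tested. By labelled age 2 passed, Gnas in lactotrope-like and Hmga2 in stem-like nuclei, and by labelled sex 1 passed, Hmga2 in stem-like nuclei, with 7 and 5 unadjusted p under 0.05. These are 4.76% and 2.38% of pairs, against 7.13% and 0.988% of all gene and class pairs tested. The members' median log2 difference was -0.06 by labelled age and -0.10 by labelled sex, against -0.01 and 0.00 for all pairs.

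**Figure D4:**
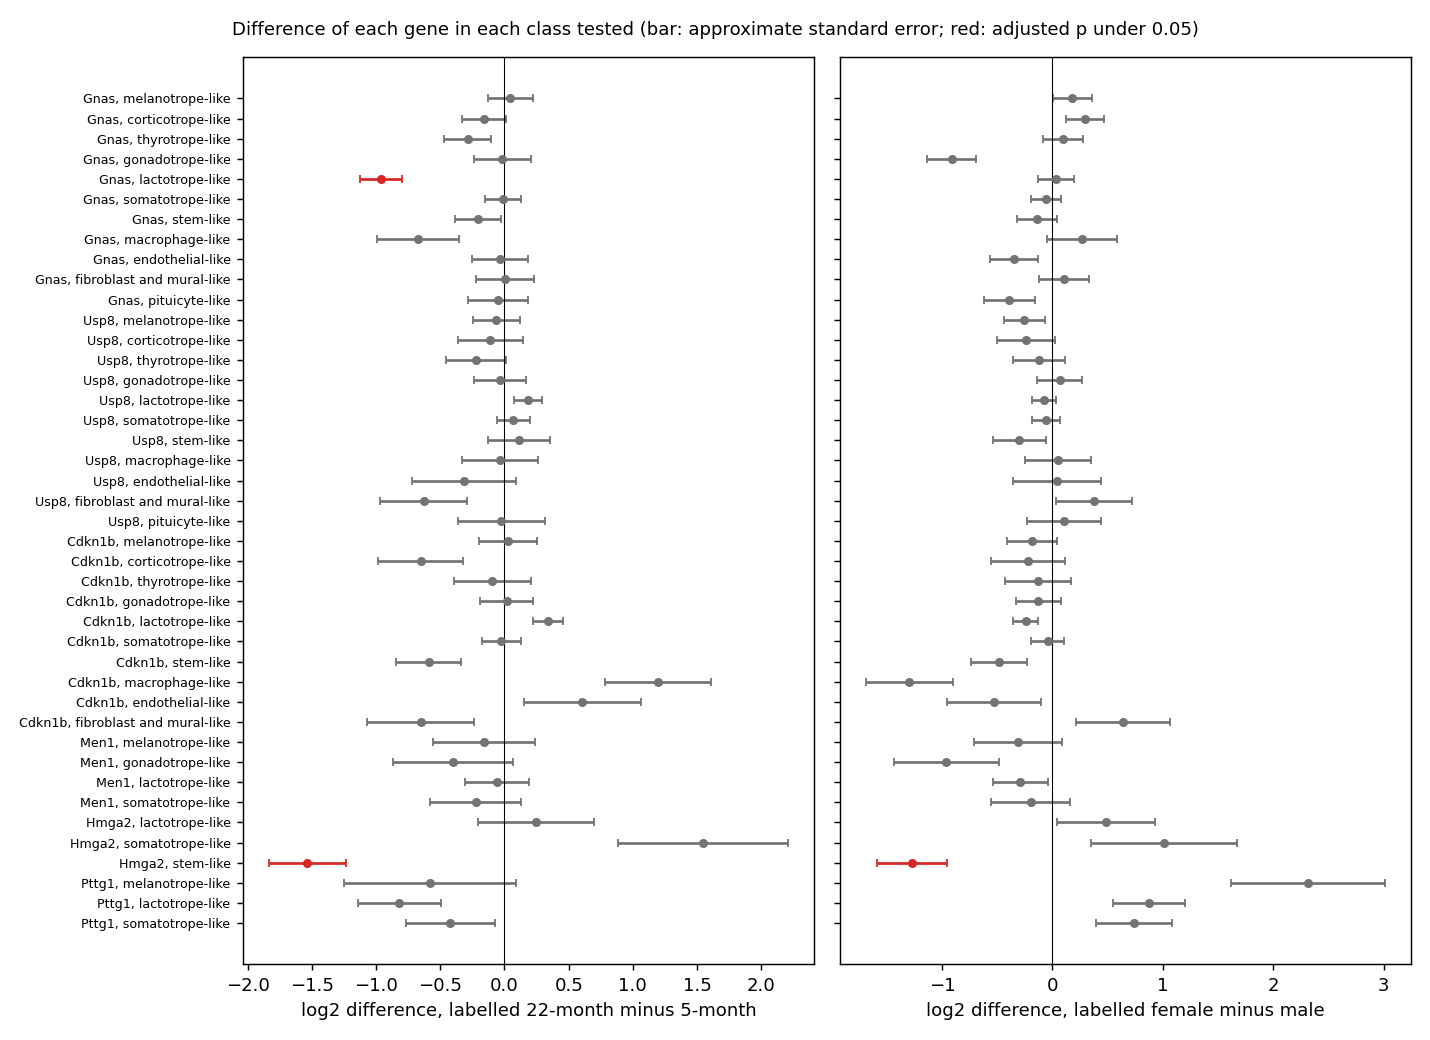
Log2 difference of each member in each class tested (rows), labelled 22-month minus 5-month (first panel) and labelled female minus male (second panel), with approximate standard errors as bars. Red marks the 2 pairs that passed by labelled age and the 1 that passed by labelled sex at an adjusted p under 0.05.

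Among 16 other pituitary tumour predisposition genes, 4 of 144 gene and class pairs rose with labelled age and 0 fell (2.78%, median log2 difference 0.11). The shares of passing pairs given here for lists are to be read against the 7.13% by labelled age and 0.988% by labelled sex of all gene and class pairs, with medians of -0.01 and 0.00. The 4 pairs were Braf in gonadotrope-like and lactotrope-like nuclei, Nf1 in melanotrope-like and Pam in gonadotrope-like nuclei. Braf, a kinase of the MAPK cascade, stood at 205, 229, 241 and 314 CPM in lactotrope-like nuclei (log2 difference 0.54 ± 0.12, edgeR adjusted p = 0.0197). Pam encodes the enzyme that amidates secreted peptides, and stood at 231, 223, 276 and 409 CPM in gonadotrope-like nuclei (0.69 ± 0.20, edgeR adjusted p = 0.0412). By labelled sex 0 of 144 passed. Prkar1a, the regulatory subunit of protein kinase A lost in Carney complex, had means from 44.0 to 87.6 CPM over the classes and passed in none of those tested.

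Of the menin partners, Jund was the member of the list that fell. Menin binds the protein it encodes, JunD, an AP-1 factor. Jund fell by labelled age in 5 classes and by labelled sex in 3, and these were all the lower calls of the list. The 91 pairs of the list had 2 higher and 5 lower by labelled age (7.69%, median -0.07, against 7.13% of all pairs). By labelled sex 0 were higher and 3 lower (3.30%, against 0.988% of all pairs). In stem-like nuclei Jund stood at 289, 63.9, 66.4 and 40.3 CPM (log2 difference by labelled age -1.69 ± 0.23, edgeR adjusted p = 1.91e-09), and 5-month females overlapped the 22-month libraries. The library of 5-month males, with the most immediate-early transcripts, was the highest in each of the 5 classes. Smad3, a TGF-beta mediator that binds menin, rose in gonadotrope-like nuclei, at 121, 111, 264 and 373 CPM (1.56 ± 0.20, edgeR adjusted p = 0.000192), and in lactotrope-like nuclei.

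In the list of p27 and its cyclins, kinases and regulators, 8 of 105 pairs rose and 1 fell by labelled age (8.57%, median 0.06, against 7.13% of all pairs), and 3 fell by labelled sex (2.86%, against 0.988%). Foxo1, a forkhead factor that drives Cdkn1b, rose in gonadotrope-like, lactotrope-like and melanotrope-like nuclei, and its paralog Foxo3 rose in somatotrope-like, gonadotrope-like and lactotrope-like nuclei. In gonadotrope-like nuclei Foxo1 stood at 70.9, 104, 156 and 239 CPM (log2 difference 1.29 ± 0.18, edgeR adjusted p = 0.000353). Cdk6, a kinase of G1, stood at 22.6, 20.7, 42.7 and 53.6 CPM in somatotrope-like nuclei (1.22 ± 0.18, edgeR adjusted p = 0.00535). Ccnd3, a D-type cyclin, rose in stem-like nuclei (0.90 ± 0.21, edgeR adjusted p = 0.00119). Cdkn1b itself passed in none of these classes, except in lactotrope-like nuclei with no filter on low counts.

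In the Gs-cAMP-PKA list, 14 of 195 pairs rose and 3 fell by labelled age (8.72%, median 0.17, against 7.13% of all pairs), and 5 rose by labelled sex (2.56%, against 0.988%). The largest difference was that of Adcy8, an adenylyl cyclase, in gonadotrope-like nuclei, at 11.5, 4.34, 306 and 651 CPM (log2 difference 5.94 ± 0.38, edgeR adjusted p = 2.17e-07). Adcy8, which was left out of the clustering, was also the leading gene of cluster 22. Adcy2, another cyclase, rose in gonadotrope-like and melanotrope-like nuclei. Pde4b, a phosphodiesterase that degrades cyclic AMP, rose by labelled age in 4 classes and by labelled sex in 3. In melanotrope-like nuclei Pde4b stood at 78.8, 179, 105 and 287 CPM (log2 difference by labelled sex 1.37 ± 0.17, edgeR adjusted p = 1.68e-06). Gnal, the olfactory relative of Gnas, stood there at 55.3, 142, 67.5 and 141 CPM (1.23 ± 0.17, edgeR adjusted p = 8.14e-06). In lactotrope-like nuclei, where Gnas fell, 24 genes of the list were tested by labelled age. Of these 4 passed as higher (Adcy5, Adcy9, Prkar1b and Prkar2a) and 2 as lower (Adcy7 and Pde8b). In that class and contrast 21.7% of all genes passed. Adcy7 stood at 12.6, 6.83, 1.86 and 3.01 CPM and Pde8b at 9.24, 11.8, 3.68 and 4.85 CPM.

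Of the Usp8 partners and ErbB receptors, 8 of 111 pairs rose and 1 fell by labelled age (8.11%, median -0.04, against 7.13% of all pairs). Erbb4, a receptor for neuregulins, rose in 7 classes. In thyrotrope-like nuclei Erbb4 stood at 213, 237, 1124 and 1521 CPM (log2 difference 2.54 ± 0.19, edgeR adjusted p = 7.58e-18). Egfr, the receptor that Usp8 deubiquitinates, fell in lactotrope-like nuclei, at 98.4, 151, 26.0 and 51.7 CPM (-1.54 ± 0.13, edgeR adjusted p = 0.000371), and rose in gonadotrope-like nuclei.

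In the cohesin list, 5 pairs rose and 1 fell by labelled age (5.94%, median 0.19, against 7.13% of all pairs). Rad21, the cohesin subunit cleaved by separase, stood at 25.1, 19.5, 46.5 and 40.1 CPM in gonadotrope-like nuclei (1.08 ± 0.27, edgeR adjusted p = 0.0193). Pds5b, a regulator of cohesin, stood at 162, 129, 253 and 219 CPM in thyrotrope-like nuclei (0.71 ± 0.18, edgeR adjusted p = 0.00826). Stag1, a cohesin subunit, stood at 236, 276, 323 and 397 CPM in somatotrope-like nuclei (0.57 ± 0.12, edgeR adjusted p = 0.0289). Of the Hmga2 partners and regulators, 1 of 30 pairs passed (3.33%): Igf2bp3, an RNA-binding protein of fetal tissue, fell in lactotrope-like nuclei, at 49.5, 51.3, 29.7 and 23.0 CPM (-0.76 ± 0.15, edgeR adjusted p = 0.0121). Of the genes of dividing cells, 1 pair could be tested and it did not pass. Over the lists without the members, 55 of 763 pairs passed by labelled age and 12 of 763 by labelled sex, against 7.13% and 0.988% of all gene and class pairs. Leaving out 5-month males reduced them to 6 and 4, 5-month females to 11 and 5, 22-month males to 39 and 9, and 22-month females to 28 and 0.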

How the data were processed

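Single nuclei of 4 pools of 3 pituitary glands were sequenced by 10x Genomics 3′ chemistry. The authors deposited raw UMI counts made with Cell Ranger 7.0.1, per the file headers; the build is mm10, per the submitters' processing notes. The sources used here do not say whether intronic reads were counted, or on which strand.

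Barcodes with under 500 genes or over 5% mitochondrial counts were removed, then doublets (Scrublet in each library, 1 threshold of 0.135, the median of its automatic ones; 10.5% to 14.2% removed). Depth before filtering was 33328821 to 65773807 UMIs per library. Nuclei were clustered in scanpy 1.11.5 (3000 variable genes, 30 components, 15 neighbours, Leiden resolution 1, 26 clusters) without the members, the listed genes, hormones and sex-linked genes, and without correction between libraries. Clusters were named by the mean standardised level of their markers, with a minimum of 0.6 and a margin of 0.6 over the next class.

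Counts were summed per class and library. edgeR 4.0.16 (quasi-likelihood, TMM, R 4.3.3) tested labelled age and labelled sex together, which leaves 1 residual degree of freedom; p-values were adjusted over all genes kept by edgeR's filter on low counts, and a gene passed under 0.05. Standard errors are the fold over the square root of F. DESeq2 1.42.0 was an alternative. With 1 pool per group, the p-values do not measure the spread between pools of the same group. The spread used by edgeR came from that 1 degree of freedom and from the other genes of the class. Those other genes weighed as 217 degrees of freedom in stem-like and 6.29 in lactotrope-like nuclei. On simulated data made from the real class sums, the script was checked to recover known changes by labelled age. Those data gave all genes of a class the same spread and held no difference by labelled sex or between clusters. The check therefore does not bear on the calls made here. Intervals are 95% and cover counting error only. Other settings tried were size factors, the low-count filter, the model's terms, doublets, cluster resolution, genes per nucleus and leaving out each library. All fits with a library left out held the tested term alone.

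The text names all members, per list up to 3 genes that passed with the smallest adjusted p, Prkar1a, and for members with at least 1000 UMIs the 3 genes most like them among those with a mean of at least 20 CPM; other named list genes were chosen after their values were seen. A further gene that the rule names is not reported here. The members and lists were chosen with earlier results of these data known. The doublet threshold, the naming score, the immediate-early genes and the motifs were set after the data were seen. Promoters came from RefSeq (GRCm38.p6) and matched all 7 members.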

Additional observations from a re-analysis of the deposited data

Results flagged for a closer look

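Several levels went opposite ways between libraries, each with a 95% counting interval that leaves out 1. With 1 library per group the difference between the groups was not tested in any of these cases. In gonadotrope-like nuclei Cdkn1b was 1.22 times as high in the 22-month as in the 5-month library among those labelled males (1.01 to 1.48) and 0.698 times among those labelled females (0.563 to 0.865). Gnas in the same nuclei was 0.775 times as high among males (0.744 to 0.807) and 1.07 times among females (1.003 to 1.13). With predicted doublets kept the ratio among females was 0.921, below 1. In stem-like nuclei Gnas was 0.716 times as high among males (0.682 to 0.752) and 1.14 times among females (1.06 to 1.21).

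By labelled sex, females over males, Gnas ratios also changed side between the labelled ages. They were 0.930 at 5 months and 1.10 at 22 months in lactotrope-like nuclei, and 1.03 and 0.933 in somatotrope-like nuclei. They were 0.745 and 1.18 in stem-like nuclei, and 0.855 and 1.24 in thyrotrope-like nuclei. The lactotrope-like and somatotrope-like ratios are the closest to 1 of these.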

How the results depend on the processing

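By labelled age, the 2 member and class pairs called became 1 with DESeq2, 4 with no filter on low counts 1 with the tested term alone, 3 with doublets kept, 3 at Leiden resolution 2, and 0 to 3 with a library left out. The added pairs included Cdkn1b in lactotrope-like nuclei with no filter, Gnas in thyrotrope-like nuclei at resolution 2, and Cdkn1b and Gnas in macrophage-like nuclei without 22-month females. By labelled sex, the 1 pair became 0 with DESeq2 (2 unadjusted p under 0.05), 3 with no filter, 0 with the tested term alone (1 unadjusted), and 0 to 1 with a library left out. Among the settings with all 4 libraries, Gpr101 in gonadotrope-like nuclei was called by labelled age with no filter and with doublets kept. By labelled sex it was called with no filter. In the main setting it had 49, 7, 0 and 0 UMIs there and did not pass the filter. Such calls rest mostly on the counts of 5-month males and give no further support for a difference. Of listed genes, 55 pairs by labelled age became 22 with DESeq2, 12 with the tested term alone and 6 to 39 with a library left out; 12 pairs by labelled sex became 5, 0 (32 unadjusted) and 0 to 9, and 31 with no filter. Over all genes, 7649 calls by labelled age became 2870 with DESeq2, 2838 with the tested term alone and 1395 to 5085 with a library left out. The 1060 calls by labelled sex became 335, 2 and 98 to 523, and 2720 with no filter. Where a group is left with 1 library, that library is assumed to vary like the others. Fits with fewer libraries or terms also estimate the spread from other samples; otherwise the cause was not tested.

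Gnas in melanotrope-like nuclei moved to 4417 CPM with doublets kept and to 5347 CPM with hormone genes left out of the totals. Usp8 in macrophage-like nuclei moved to 116 CPM with doublets kept, 133 with at least 1000 genes, 148 with TMM scaling and 193 without hormone genes. With doublets kept, Gnas ratios in gonadotrope-like nuclei were 0.724 by labelled age in males, 0.921 in females, which reversed, and 0.553 and 0.703 by labelled sex at 5 and 22 months. Gpr101 was then at least 40.6-fold and 4.64-fold lower. The doublet and hormone settings for these values were chosen after seeing the data. With at least 1000 genes per nucleus the endothelial-like class fell below 30 nuclei in 5-month males. No paired analysis was possible because each group has 1 library and the labels carry no replicate numbers. Low counts limit Men1, Pttg1 and Gpr101 most.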
